A study of Mus musculus with 12 samples.

Results

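The 9 myelin protein genes Mbp, Mobp, Mal, Cldn11, Mog, Mag, Cnp, Ermn and Ugt8a were followed in the brains of mice after an experimental stroke. They were taken by symbol from the raw count table, where all 9 are present among 25124 genes, and all 9 passed the filter on low counts. RNA was sequenced from brain tissue taken on day 28 after MCAo, the closing of the middle cerebral artery, which cuts off the blood supply of a large part of a hemisphere. The 4 groups of 3 libraries were the hemisphere on the side of the lesion (ipsilateral) from DKK1 mice, the same side from wild-type mice, the intact (contralateral) hemisphere from DKK1 mice, and that hemisphere from wild-type mice. The alleles of the DKK1 mice were tetO-Dkk1 at Hprt, the doxycycline-dependent activator rtTA with EGFP at Gt(ROSA)26Sor, and the reporter Tg(TCF/Lef1-lacZ)34Efu/J, whereas the wild type is given as C57BL6/J. Every group received doxycycline at 200 mg/kg, from day 3 after MCAo. The labels give no age, and they name no promoter or Cre that would confine the activator to a cell type. None of the 4 groups carried the alleles without doxycycline, so that induced DKK1 and the other alleles or background DNA of these mice cannot be told apart. The labels do not state that each library of a group is its own animal. P-values therefore rest on the spread between libraries alone, and some of that spread may be technical.

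Myelin is the membrane that oligodendrocytes wrap around axons in the central nervous system. It speeds conduction, and its loss and repair are studied in stroke because white matter lies within the damaged territory. DKK1 (dickkopf-1) is a secreted antagonist of Wnt signalling, a pathway known to hold back the maturation of oligodendrocyte precursors. The genes differ in where their products sit. Mbp (myelin basic protein), Mobp and Mal belong to compact myelin, Cldn11 forms the tight junctions between its layers, Mog lies on the outer surface, and Mag on the inner membrane that faces the axon. Cnp, a cyclic nucleotide phosphodiesterase, and the cytoskeletal protein ermin (Ermn) sit in the cytoplasmic channels, while Ugt8a is not a structural protein but the enzyme that makes galactocerebroside, a main lipid of myelin.

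The libraries held 21209920 to 26911840 counts. Dkk1 itself had 32, 7 and 44 counts in the DKK1 ipsilateral libraries, against 0 in each wild-type ipsilateral library, and 13, 5 and 4 counts in the DKK1 contralateral libraries, against 0 in each wild-type contralateral library. The 9 genes together took 0.323 ± 0.00625% of the counts in DKK1 ipsilateral, 0.329 ± 0.0142% in wild-type ipsilateral, 0.256 ± 0.0137% in DKK1 contralateral and 0.249 ± 0.0172% in wild-type contralateral libraries (SD, n = 3 each). Both ipsilateral groups lay above both contralateral groups in every library. Of the genes of Schwann cells, which form the myelin of peripheral nerves, Pmp2 had 0 to 6 counts in any library. Mbp had at least 20433 counts in each. In tissue of this kind, fewer cells of a type and less RNA per cell cannot be told apart.

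Levels can be compared between genes in TPM, a unit relative to the library that allows for transcript length. Averaged over the 12 libraries, Mbp stood at 796 TPM and was between the 2nd and the 5th most abundant gene of each library. Mobp followed at 336 TPM, Cnp at 171 TPM, Cldn11 at 147 TPM, Mag at 123 TPM and Mal at 117 TPM. Lower levels were found for Mog, at 57.3 TPM, for Ermn, at 41.8 TPM, and for Ugt8a, at 21.5 TPM. Mag and Mal overlapped library by library (88.3 to 177 and 94.6 to 142 TPM), as did Cldn11 with Mag. Cnp (133 to 219.9 TPM) and Cldn11 (104 to 199 TPM) overlapped too, so neighbours in the middle of this order do not stand apart from each other. Spread within a group also differed between the genes. The median coefficient of variation was 5.30% for Mbp, 5.90% for Mal, 5.88% for Ermn and 6.10% for Cldn11, but 12.5% for Mog, 14.7% for Mag and 37.0% for Ugt8a. The count and TPM tables list the same transcript for 4 of the 9 (Mog, Ermn, Ugt8a and Cldn11), and other transcripts of the gene for the rest, so TPM and counts of those 5 rest on different gene models.

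On mm10, the transcripts counted lie on 7 chromosomes. Mbp spans chr18:82554463-82585637 on the plus strand, Mobp chr9:120149742-120181486 (plus), Cnp chr11:100575891-100581739 (plus) and Cldn11 chr3:31149920-31164326 (plus). Ugt8a lies on the same chromosome as Cldn11, at chr3:125865272-125938652 (minus). Mal, at chr2:127633226-127656695 (minus), and Ermn, at chr2:58045115-58052864 (minus), share chromosome 2. Mog is at chr17:37010740-37023398 (minus) and Mag at chr7:30899181-30914922 (minus). The coordinates are those of the count table and cover the whole transcript, exons, introns and untranslated regions included.

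Promoter sequences are shown for Mog, Mag, Cnp and Ugt8a, which moved together between libraries of a group as described below, and for Mobp, which moved against them. Each run is the 250 bases before the start of a RefSeq transcript on GRCm38.p6 (the patched release of mm10), written 5′ to 3′ on the gene's strand. Starts match the count table for Mog, Mag, Ugt8a and Mobp, and that of Cnp lies upstream of the counted transcript. Capitals mark letters that were searched on both strands: CTGGCAC or CTGGTAC, after the motif of the myelin regulatory factor MYRF, ACAAAG or ACAATG, after that of SOX factors such as SOX10, and CTTTGAT, after that of the Wnt effectors TCF and LEF.

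Mog, chr17:37023399-37023648 (minus): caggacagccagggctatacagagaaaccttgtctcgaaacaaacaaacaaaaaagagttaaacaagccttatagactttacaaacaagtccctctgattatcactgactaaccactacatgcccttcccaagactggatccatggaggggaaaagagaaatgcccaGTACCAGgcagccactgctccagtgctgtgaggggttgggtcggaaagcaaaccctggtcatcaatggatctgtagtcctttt
Mag, chr7:30914923-30915172 (minus): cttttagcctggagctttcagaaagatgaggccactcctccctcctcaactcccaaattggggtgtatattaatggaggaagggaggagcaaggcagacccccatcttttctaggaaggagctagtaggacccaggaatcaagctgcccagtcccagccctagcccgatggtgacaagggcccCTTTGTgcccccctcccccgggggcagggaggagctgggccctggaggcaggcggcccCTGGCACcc
Cnp, chr11:100574689-100574938 (plus): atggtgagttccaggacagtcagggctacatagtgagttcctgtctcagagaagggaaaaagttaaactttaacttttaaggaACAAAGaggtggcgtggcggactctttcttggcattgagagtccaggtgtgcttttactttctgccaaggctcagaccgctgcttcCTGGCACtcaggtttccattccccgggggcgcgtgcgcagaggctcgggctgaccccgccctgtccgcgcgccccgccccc
Ugt8a, chr3:125938653-125938902 (minus): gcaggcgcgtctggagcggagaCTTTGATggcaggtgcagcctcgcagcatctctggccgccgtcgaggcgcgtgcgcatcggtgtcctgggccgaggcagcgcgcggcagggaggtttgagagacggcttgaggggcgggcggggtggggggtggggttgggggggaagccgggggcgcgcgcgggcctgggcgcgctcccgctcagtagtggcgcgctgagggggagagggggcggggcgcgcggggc
Mobp, chr9:120149492-120149741 (plus): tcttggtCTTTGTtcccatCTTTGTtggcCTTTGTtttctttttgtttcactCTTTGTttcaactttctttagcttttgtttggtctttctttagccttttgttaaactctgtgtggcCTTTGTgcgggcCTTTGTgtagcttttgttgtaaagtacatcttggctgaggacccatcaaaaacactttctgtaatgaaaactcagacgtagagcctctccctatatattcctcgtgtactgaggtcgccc

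Of the 9 genes, 8 had a promoter in the table. The MYRF letters occurred in 3 of these 8 (Mog at −83 to −77, Mag at −9 to −3 and Cnp at −81 to −75, counted from the transcript start), against 5.93% of all 32851 promoters of the same length. The SOX letters occurred in 4 of 8 (Mag, Mobp, Cnp and Ermn), against 25.2% of all promoters, and the Mobp promoter held 6 copies on the minus strand. The TCF/LEF letters occurred in Ugt8a alone, against 3.21% of all promoters, and share CTTTG with the reverse complement of ACAAAG. Searches for the E-box letters CAGCTG or CAGATG (25.5% of all promoters) and for TATAAA (12.4%) matched none of the 8. A match describes these letters only and is not a binding site.

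**Figure D1:**
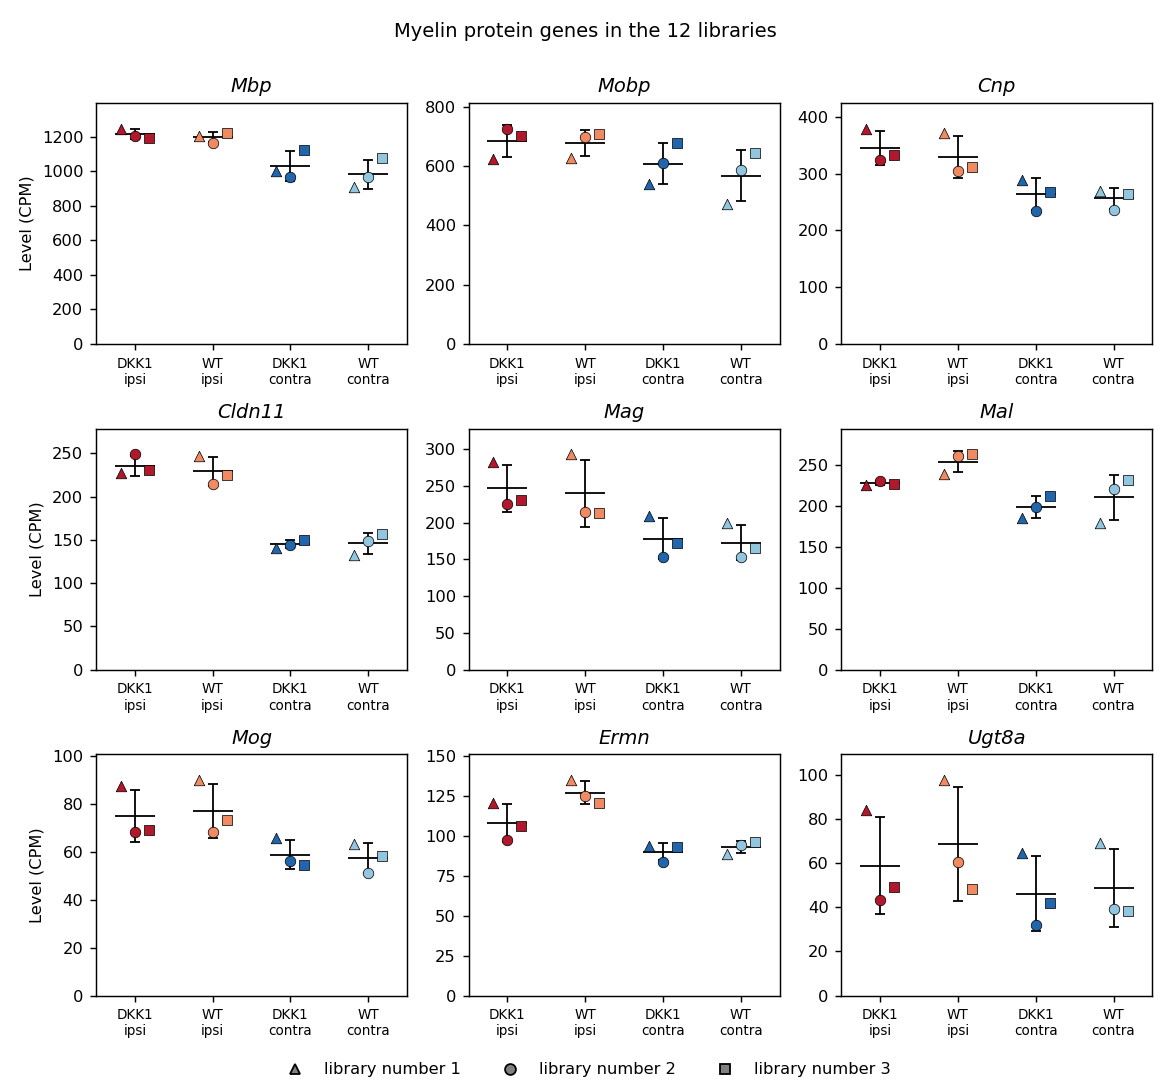
Level of each gene as counts scaled to library size (CPM, linear axis from 0) in the 12 libraries, with DKK1 ipsilateral, wild-type (WT) ipsilateral, DKK1 contralateral and WT contralateral libraries from left to right; horizontal marks and bars are the mean and SD of 3 libraries, and the marker shape gives the library number. Cldn11 shows a clear gap between the hemispheres, while in Ugt8a the library numbered 1 (triangle) is the highest of its group in all 4 groups.

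Before the comparisons, the libraries numbered 1 have to be described, since they stood apart for several of these genes in all 4 groups. Ugt8a exceeded the mean of libraries 2 and 3 by 0.86 in DKK1 ipsilateral, 0.85 in wild-type ipsilateral, 0.82 in DKK1 contralateral and 0.84 in wild-type contralateral mice (log2 CPM). Averaged over groups, that difference lay at the 98.9th percentile of the tested genes. Mag (mean difference 0.36), Mog (0.29) and Cnp (0.20) were also higher in library 1 of each group, whereas Mobp (−0.25) and Mal (−0.16) were lower in each. A difference of the same sign in all 4 groups was found for 6 of the 9 genes, against 22.5% of the genes tested. Mbp, Cldn11 and Ermn showed no common sign, with mean differences of −0.04, −0.04 and 0.09.

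Other genes of mature oligodendrocytes did the same. Of 31 listed, 18 were higher in library 1 of all 4 groups, against 10.9% of the genes tested, and 3 (Anln, Hapln2 and Apod) were lower in all 4, against 11.6%. Opalin, a membrane protein of mature oligodendrocytes, had 41.0, 22.7 and 25.0 CPM in DKK1 ipsilateral libraries 1, 2 and 3, against 47.0, 15.9 and 12.3 CPM in wild-type ipsilateral ones. The contralateral values were 31.0, 15.9 and 15.9 CPM in DKK1 and 32.3, 9.11 and 10.1 CPM in wild-type mice, so library 1 was the highest in every group. Across tested genes, which are not independent replicates, Spearman's rho of the difference was 0.06 with length and −0.04 with GC content (15997 genes, 90.8% of those tested). The labels do not say what the number stands for.

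**Figure D2:**
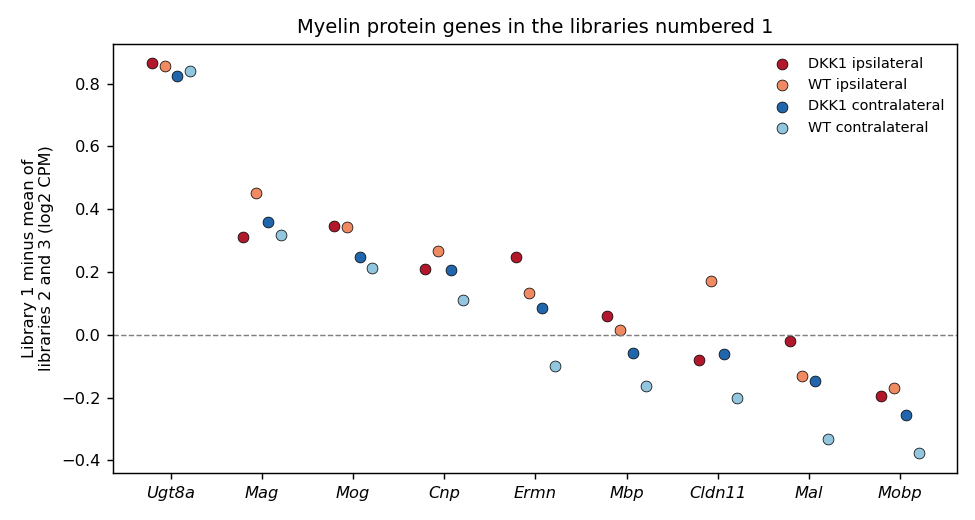
Difference between library 1 and the mean of libraries 2 and 3 of the same group (log2 CPM, vertical axis) for each gene, ordered by its mean; points are the 4 groups. Ugt8a lies between 0.82 and 0.86 in all groups, Mag, Mog and Cnp are above 0 in all, and Mal and Mobp are below 0 in all.

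The genes also fell into sets by how they varied together. On deviations from the group means over the 12 libraries, Mog, Mag, Cnp and Ugt8a correlated with each other at r of 0.86 to 0.97 (Pearson, log2 CPM, 6 pairs), and Mobp with Mal at 0.94. The 8 correlations between these sets were all negative, from −0.83 (Ugt8a with Mobp) to −0.44 (Cnp with Mal). With the 4 libraries numbered 1 left out, the same 8 correlations lay between 0.35 and 0.95 over 8 libraries, so the opposition of the sets rests on those libraries. Mobp and Mal then correlated at 0.997, while those within the set of Mog, Mag, Cnp and Ugt8a spread from −0.43 to 0.98. These correlations are descriptions: the deviations within a group sum to 0, and all genes share the depth of a library.

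**Figure D3:**
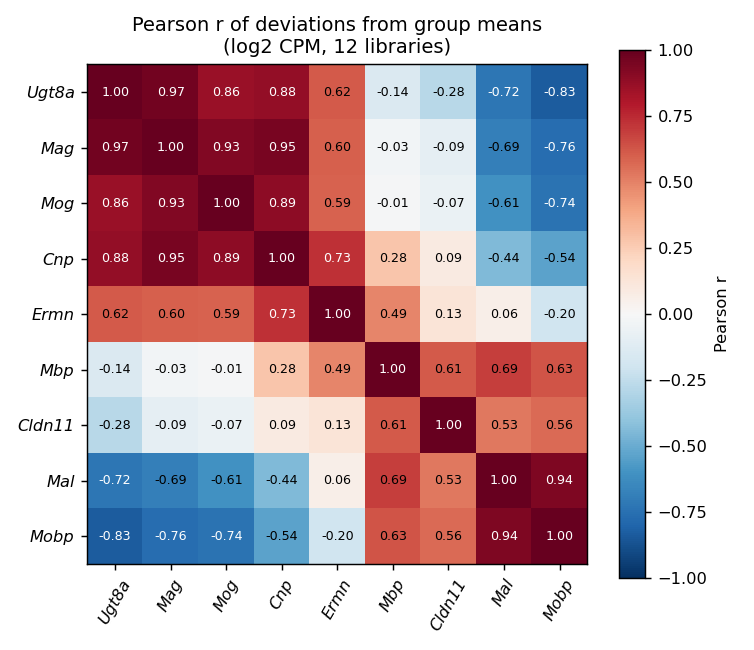
Pearson correlation between the 9 genes on deviations from group means (log2 CPM, 12 libraries), with red for positive and blue for negative values. Ugt8a, Mag, Mog and Cnp form a positive block, Mal and Mobp a second, and the values between the blocks run from −0.83 to −0.44.

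The ipsilateral hemisphere was set against the contralateral one within each genotype. Myelin genes were higher in the lesioned hemisphere at day 28: 6 of the 9 passed the test in DKK1 mice (27.5% of all tested genes were higher by the same rule, 50.1% in either direction) and 7 of 9 in wild-type mice (21.2% higher, 37.2% in either direction), and none was lower (22.6% of all genes in DKK1 and 15.9% in wild-type mice). A gene passed at an adjusted p under 0.05 in edgeR's quasi-likelihood test, adjusted by Benjamini-Hochberg over 17612 genes. The median log2 fold change of the 9 was 0.35 in DKK1 mice, where that of all tested genes was 0.01, and 0.42 in wild-type mice, where that of all was 0.01. Ipsilateral and contralateral libraries did not overlap for 7 of 9 genes in DKK1 mice, against 32.1% of all genes, and for 7 of 9 in wild-type mice, against 26.5%, the ipsilateral side being higher in each. None lay lower without overlap, where 27.8% of all genes did in DKK1 mice and 23.8% in wild-type mice. Between same-numbered libraries, every gene was higher on the ipsilateral side in 6 of 6 pairs. Single libraries changed the counts: 2 genes passed in DKK1 mice without DKK1 ipsilateral 1 or DKK1 contralateral 2, and 4 without DKK1 contralateral 3. In wild-type mice 4 genes passed without wild-type ipsilateral 1 or wild-type contralateral 2.

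Among the genes of compact myelin, Mbp had 1246, 1201 and 1192 CPM in DKK1 ipsilateral libraries 1, 2 and 3, and 1206, 1165 and 1221 CPM in wild-type ipsilateral ones. On the contralateral side it had 1001, 964 and 1125 CPM in DKK1 and 909, 966 and 1074 CPM in wild-type libraries. All 6 ipsilateral libraries thus lay above all 6 contralateral ones. Mbp rose by a log2 fold change of 0.24 ± 0.07 in DKK1 mice (SE, 1.18-fold, adjusted p = 0.0199) and by 0.28 ± 0.07 in wild-type mice (1.22-fold, adjusted p = 0.0114). Without the libraries numbered 1 neither value passed (0.20 in DKK1, adjusted p = 0.0881, and 0.23 in wild-type mice, adjusted p = 0.0753). The DKK1 call also ended without DKK1 ipsilateral 1 (adjusted p = 0.057), DKK1 contralateral 1 (0.0973) or DKK1 contralateral 2 (0.117).

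Mobp had 624, 727 and 702 CPM in DKK1 ipsilateral, 626, 698 and 711 CPM in wild-type ipsilateral, 539, 609.6 and 679 CPM in DKK1 contralateral and 474, 587 and 646 CPM in wild-type contralateral libraries. Library 1 was the lowest of each group, and ipsilateral library 1 lay below contralateral library 3 in both genotypes. Its difference of 0.17 ± 0.12 in DKK1 mice (adjusted p = 0.252) and 0.26 ± 0.12 in wild-type mice (adjusted p = 0.104) did not pass. With 1 library left out it lay at 0.058 to 0.23 in DKK1 mice (lowest without DKK1 contralateral 1) and 0.14 to 0.35 in wild-type mice (lowest without wild-type contralateral 1). Mal, whose product is a small proteolipid of lipid rafts, had 226, 231 and 227 CPM in DKK1 ipsilateral, 239.6, 261 and 263 CPM in wild-type ipsilateral, 186, 199 and 213 CPM in DKK1 contralateral and 179.9, 221 and 232 CPM in wild-type contralateral libraries. Its ipsilateral libraries lay above the contralateral ones of the same genotype, without overlap. In DKK1 mice the difference of 0.19 ± 0.09 (adjusted p = 0.0787) did not pass, and in wild-type mice Mal rose by 0.27 ± 0.09 (adjusted p = 0.0265), a call that ended when wild-type ipsilateral 2 (adjusted p = 0.0636), the third ipsilateral library (0.0796) or the first contralateral one (0.0724) was left out.

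Cldn11 had the highest fold change of the 9 genes in both genotypes. Cldn11 had 227, 248.7 and 231 CPM in DKK1 ipsilateral, 248, 215 and 225 CPM in wild-type ipsilateral, 141, 144 and 150.2 CPM in DKK1 contralateral and 133, 148 and 157 CPM in wild-type contralateral libraries. The lowest ipsilateral library (215 CPM) was well above the highest contralateral one (157 CPM). Cldn11 rose by 0.70 ± 0.07 in DKK1 mice (1.62-fold, 95% interval 1.46 to 1.81, adjusted p = 1.46e-05) and by 0.65 ± 0.07 in wild-type mice (1.57-fold, 1.41 to 1.75, adjusted p = 6.86e-05). Set against the mean of the other 8 genes in the same library (log2 CPM), it stood at −0.16 to 0.22 in the 6 ipsilateral libraries and at −0.51 to −0.22 in the 6 contralateral ones, a mean difference of 0.34. The other 8 genes overlapped between hemispheres on that relative scale. Between same-numbered libraries, however, Cldn11 (0.15 to 0.45) and Mag (0.03 to 0.18) were relatively higher ipsilaterally in 6 of 6 pairs, and Mbp, Mobp and Mal relatively lower in 6 of 6. For Mbp, Mobp and Mal the mean of the other 8 genes includes Cldn11, so part of their relative fall is built into that scale. Claudin-11 is also known from cells of the meninges, and 10 genes of fibroblasts and meninges, a list chosen after the data were seen, summed to 1051 to 1420 CPM in DKK1 ipsilateral, 669 to 1270 CPM in wild-type ipsilateral, 154 to 195 CPM in DKK1 contralateral and 152 to 284 CPM in wild-type contralateral libraries. All 10 passed as higher in DKK1 mice (27.5% of all tested genes did) and 9 in wild-type mice (21.2%). The part of these genes in the Cldn11 difference was not tested.

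At the outer and inner faces of the sheath, Mog and Mag rose in both genotypes. Mog, known as a target of autoimmune demyelination, had 87.2, 68.1 and 69.1 CPM in DKK1 ipsilateral, 89.8, 68.2 and 73.3 CPM in wild-type ipsilateral, 65.6, 56.0 and 54.5 CPM in DKK1 contralateral and 63.1, 50.9 and 58.2 CPM in wild-type contralateral libraries. Library 1 was the highest of each group, and the hemispheres did not overlap. The increase was 0.35 ± 0.13 in DKK1 mice (adjusted p = 0.0405) and 0.42 ± 0.13 in wild-type mice (adjusted p = 0.0233). Mag, an adhesion protein that binds the axon and inhibits its regrowth, had 283, 226 and 231 CPM in DKK1 ipsilateral, 293, 214 and 213 CPM in wild-type ipsilateral, 209, 153 and 172 CPM in DKK1 contralateral and 199, 154 and 166 CPM in wild-type contralateral libraries. Here too library 1 was the highest of each group, and the lowest ipsilateral library stayed above the highest contralateral one. Mag rose by 0.47 ± 0.15 in DKK1 mice (1.38-fold, adjusted p = 0.0255) and by 0.47 ± 0.15 in wild-type mice (1.39-fold, adjusted p = 0.0323). Leaving out DKK1 ipsilateral 1, DKK1 contralateral 2 or DKK1 contralateral 3 ended the DKK1 calls of Mog and Mag (adjusted p of 0.0876 to 0.163), and so did wild-type ipsilateral 1, wild-type contralateral 2 or wild-type contralateral 3 for the wild-type calls (0.0548 to 0.146). The DKK1 call of Mog lay near the threshold and also ended without wild-type ipsilateral 3 or wild-type contralateral 3, under other scalings and without the filter on low counts (adjusted p of 0.0509 to 0.0692).

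Of the genes of the cytoplasmic channels, Cnp had 379, 324 and 332 CPM in DKK1 ipsilateral, 371, 305 and 311 CPM in wild-type ipsilateral, 289, 234 and 268 CPM in DKK1 contralateral and 269, 235 and 264 CPM in wild-type contralateral libraries. The hemispheres did not overlap in either genotype. Cnp rose by 0.39 ± 0.10 in DKK1 mice (1.31-fold, adjusted p = 0.00668) and by 0.36 ± 0.10 in wild-type mice (1.28-fold, adjusted p = 0.0149), where the call ended when wild-type ipsilateral 1 (adjusted p = 0.062) or contralateral 2 of that genotype (0.0663) was left out. Ermn, which binds actin and appears late in oligodendrocyte maturation, had 121, 97.3 and 106 CPM in DKK1 ipsilateral, 135, 125 and 121 CPM in wild-type ipsilateral, 93.6, 83.8 and 92.8 CPM in DKK1 contralateral and 88.7, 93.9 and 96.3 CPM in wild-type contralateral libraries. The gap between hemispheres was wide in wild-type mice, while in DKK1 mice ipsilateral 2 (97.3 CPM) lay just above contralateral 1 (93.6 CPM). It rose by 0.26 ± 0.08 in DKK1 mice (adjusted p = 0.0148) and by 0.45 ± 0.08 in wild-type mice (adjusted p = 0.00125). The DKK1 call ended without DKK1 ipsilateral 1 (adjusted p = 0.0606) or DKK1 contralateral 2 (0.0973).

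Ugt8a, the galactocerebroside enzyme, had 84.1, 43.4 and 49.0 CPM in DKK1 ipsilateral, 97.7, 60.4 and 48.2 CPM in wild-type ipsilateral, 64.9, 31.9 and 42.1 CPM in DKK1 contralateral and 69.3, 39.1 and 38.3 CPM in wild-type contralateral libraries. Library 1 of a contralateral group exceeded libraries 2 and 3 of the matching ipsilateral group, so the hemispheres overlapped, although each number was higher ipsilaterally. The difference of 0.35 ± 0.37 in DKK1 mice (95% interval −0.46 to 1.16, adjusted p = 0.455) and of 0.49 ± 0.36 in wild-type mice (−0.31 to 1.30, adjusted p = 0.321) did not pass. With 1 library left out it lay at 0.0016 to 0.64 in DKK1 mice (0.0016 without DKK1 ipsilateral 1 and 0.64 without DKK1 contralateral 1), and at 0.15 to 0.83 in wild-type mice (lowest without its ipsilateral 1, highest without its contralateral 1). The labels do not say that same-numbered libraries belong together. With the same-numbered libraries of a genotype treated as a pair, Ugt8a passed in DKK1 (0.35, adjusted p = 0.00105) and wild-type mice (0.49, adjusted p = 0.000166). Mal then passed in DKK1 mice (0.20, adjusted p = 0.0145) and Mobp in wild-type mice (0.26, adjusted p = 0.00926), which made 8 of 9 genes in DKK1 and 9 of 9 in wild-type mice. That paired fit also called more of all genes, 9903 in DKK1 and 7982 in wild-type mice, where the unpaired fit called 8819 in DKK1 and 6546 in wild-type mice. With the pairs as a random effect (limma-voom, estimated correlation 0.314), Ugt8a did not pass in DKK1 (0.36, adjusted p = 0.256) or in wild-type mice (0.48, adjusted p = 0.142). Mal in DKK1 mice (0.20, adjusted p = 0.0273) and Mobp in wild-type mice (0.26, adjusted p = 0.0295) passed in that fit. It called 10122 of all genes in DKK1 and 8250 in wild-type mice. Mobp in DKK1 mice passed neither in the first paired fit (0.17, adjusted p = 0.0533) nor with the pairs as a random effect (0.17, adjusted p = 0.12).

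**Figure D4:**
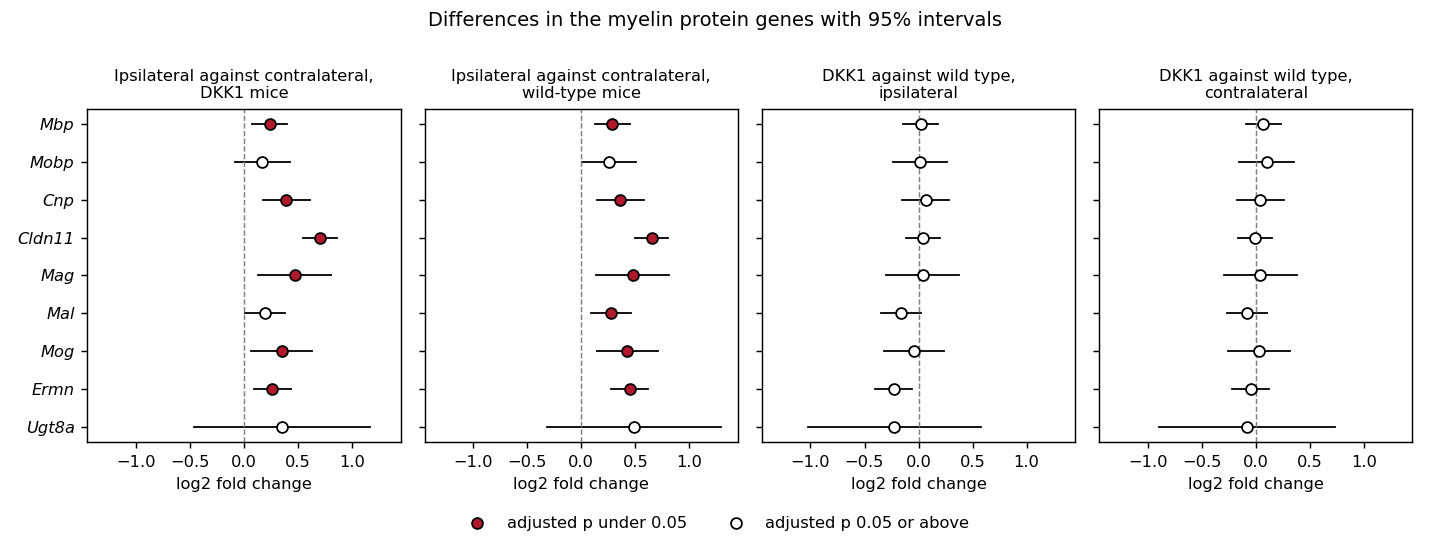
Log2 fold changes (horizontal axis) with 95% intervals from edgeR for the 9 genes, ordered by level: ipsilateral over contralateral in DKK1 and in wild-type mice (left panels) and DKK1 over wild type in the ipsilateral and the contralateral hemisphere (right panels); filled points have an adjusted p under 0.05. All 18 hemisphere values are above 0, with Cldn11 at 0.70 and 0.65, while no genotype value is filled.

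Markers of other cells moved with the hemisphere as well. Counts of genes that passed stand here beside 27.5% higher and 22.6% lower of all tested genes in DKK1 mice. In wild-type mice those shares were 21.2% higher and 15.9% lower. The summed level of 12 neuronal genes was 3955 to 4482 CPM in DKK1 ipsilateral and 3852 to 4802 CPM in wild-type ipsilateral libraries, against 5398 to 5936 CPM in DKK1 contralateral and 5446 to 5647 CPM in wild-type contralateral ones, with 12 of 12 lower in DKK1 and 9 of 12 lower in wild-type mice. The 8 genes of striatal neurons summed to 771 to 1103 CPM in DKK1 ipsilateral and 808 to 1164 CPM in wild-type ipsilateral libraries, against 1521 to 2011 CPM in DKK1 contralateral and 1500 to 2178 CPM in wild-type contralateral ones, and 8 of 8 fell in each genotype. The 12 genes of microglia and macrophages reached 1820 to 2018 CPM in DKK1 ipsilateral and 1102 to 1936 CPM in wild-type ipsilateral libraries, against 326 to 402 CPM in DKK1 contralateral and 317 to 513 CPM in wild-type contralateral ones. All 12 passed as higher in DKK1 and 11 in wild-type mice. Regional markers were mixed. The 6 genes of choroid plexus summed to 199 to 453 CPM in DKK1 ipsilateral, 234 to 431 CPM in wild-type ipsilateral, 128 to 211 CPM in DKK1 contralateral and 80.2 to 152 CPM in wild-type contralateral libraries, with 1 of 6 higher in DKK1 and 6 of 6 in wild-type mice. Of 5 genes of ependyma, 3 were higher in DKK1 and 5 in wild-type mice, and of 8 of the thalamus 2 were higher and 2 lower in DKK1 and 4 higher and 1 lower in wild-type mice. In DKK1 mice the choroid plexus and thalamus counts lay near or below the shares of all tested genes. A difference between the genotypes in these counts was not tested. CPM are shares of a library, and the part of these other cells in the differences of the myelin genes was not tested.

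DKK1 mice were next compared with wild-type mice. In the ipsilateral hemisphere none of the 9 genes passed in either direction, where 2.37% of all tested genes did (1.52% higher and 0.846% lower), and 1 (Ermn) had an unadjusted p under 0.05. Fold changes ran from −0.23 to 0.07 on the log2 scale, with a median of 0.01 beside 0.02 for all tested genes. Ermn averaged 108 ± 11.8 CPM in DKK1 and 127 ± 7.23 CPM in wild-type ipsilateral libraries (SD, n = 3 each), a difference of −0.23 ± 0.08 (adjusted p = 0.129). DKK1 ipsilateral 1 and wild-type ipsilateral 3 were both at 121 CPM, so the groups met at the edge. Mal averaged 228 ± 2.66 CPM in DKK1 and 254.7 ± 13.1 CPM in wild-type ipsilateral libraries, −0.16 ± 0.09 (adjusted p = 0.307), and was the single gene of the 9 whose groups did not overlap, all DKK1 libraries being lower (7.26% of all genes did so, and 13.3% were higher without overlap).

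Of these ipsilateral differences, that of Ermn alone had a 95% interval without 0 (−0.40 to −0.061). The interval of Mal (−0.35 to 0.027) and those of the other genes included 0. For Mbp the ipsilateral difference was 0.02 ± 0.07, with a 95% interval of −0.14 to 0.18, which leaves room for a fold of 0.905 to 1.13 of the wild-type level. Cldn11 (0.04 ± 0.07), Cnp (0.07 ± 0.10), Mobp (0.01 ± 0.12), Mag (0.04 ± 0.15) and Mog (−0.04 ± 0.13) were similarly close to 0. For Ugt8a (−0.22 ± 0.36) the interval of −1.02 to 0.58 still allows a fold of 0.492. In the contralateral hemisphere none of the 9 passed, where 0.880% of all tested genes did (0.369% higher and 0.511% lower), and none had an unadjusted p under 0.05. No member's groups were free of overlap there (5.84% of all genes were higher and 6.07% lower without overlap). Values ran from −0.08 for Ugt8a to 0.10 for Mobp. The change between hemispheres did not differ detectably between the genotypes: in the test of the interaction none of the 9 passed (0.00568% of all genes, which is 1 gene), none had an unadjusted p under 0.05, and Ermn had the smallest adjusted p (−0.18 ± 0.11, adjusted p = 0.631).

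The ipsilateral comparison of genotypes changed without the libraries numbered 1. Without those 4 libraries, chosen after the data were seen, 2 of the 9 genes passed as lower in DKK1 ipsilateral than in wild-type ipsilateral libraries: Ermn at −0.27 (adjusted p = 0.00728) and Mal at −0.19 (adjusted p = 0.0221). With 2 libraries left in each group, 5096 of all genes were called in that comparison, against 417 with all libraries, so the 2 genes are read against a far higher background. Leaving out DKK1 ipsilateral 1 alone gave Ermn −0.32 (adjusted p = 0.0293), with 1070 of all genes called. In the hemisphere comparisons the counts without the 4 libraries were 6 of 9 in DKK1 and 7 of 9 in wild-type mice, with Mal gained and Mbp lost in DKK1 mice, and Ugt8a gained and Mbp lost in wild-type mice. Of all genes, 9276 were then called in DKK1 and 5702 in wild-type mice.

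The neighbours of the 9 genes were also compared between genotypes. Around Mog, 29 of the 206 genes tested within 5 Mb (14.1%) were called between DKK1 and wild type ipsilaterally and 23 (11.2%) contralaterally, against 2.37% and 0.880% of all genes. This stretch of chromosome 17 holds the mouse major histocompatibility complex. Among the calls was the pseudogene H2-Ea-ps, at a mean of 68.0 CPM in DKK1 ipsilateral and 0.0632 CPM in wild-type ipsilateral libraries. The ribosomal protein gene Rps18 stood at 19.1 CPM in DKK1 contralateral and 54.7 CPM in wild-type contralateral libraries. Mog itself did not pass, with differences of −0.04 ± 0.13 ipsilaterally and 0.03 ± 0.13 contralaterally. Around Mbp, 2 of 37 genes were called ipsilaterally (Cyb5a at 0.27 ± 0.06 and Dipk1c at −0.81 ± 0.17), and around Cldn11 Mccc1 was called in both hemispheres (−0.35 ± 0.07 ipsilaterally and −0.44 ± 0.07 contralaterally). Windows around the other 6 genes held 0 to 2 calls each.

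The rest of the oligodendrocyte program was described through lists of other genes, whose counts stand beside 27.5% higher and 22.6% lower of all tested genes in DKK1 mice and 21.2% higher and 15.9% lower in wild-type mice. Of 31 other genes of the myelin sheath and mature oligodendrocytes, 17 were higher and 2 lower ipsilaterally in DKK1 mice and 18 higher and 1 lower in wild-type mice, with medians of 0.37 and 0.47. Cd9, a tetraspanin, averaged 118 CPM in DKK1 ipsilateral and 36.5 CPM in DKK1 contralateral libraries (1.69 ± 0.18, adjusted p = 2.41e-05), and 99.8 CPM in wild-type ipsilateral and 37.9 CPM in wild-type contralateral libraries (1.40 ± 0.18, adjusted p = 0.000209). Apod, the lipid carrier apolipoprotein D, rose by 1.97 ± 0.22 in DKK1 mice (adjusted p = 3.69e-05). Those that fell were Omg, in both genotypes, and Mapt, in DKK1 mice, all named because they were so few. Both are also expressed by neurons. The cell source of the genes that rose or fell, in this and the other lists, was not tested. Gsn (gelsolin), which severs actin filaments, rose by 0.99 ± 0.10 in DKK1 and 0.77 ± 0.10 in wild-type mice, and Ndrg1 by 0.75 ± 0.08 in DKK1 and 0.58 ± 0.08 in wild-type mice.

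Genes of myelin lipids were next. Of 14, 8 were higher and 0 lower in DKK1 mice and 9 higher and 0 lower in wild-type mice (medians 0.34 and 0.40). The values of Smpd1, Acsbg1 and Pex5l, which did not pass, were below 0 in both genotypes. Of these, Pex5l is known from neurons rather than from lipid synthesis. Galc, which breaks down galactocerebroside, had 81.0 CPM in DKK1 ipsilateral and 49.2 CPM in DKK1 contralateral libraries on average (0.72 ± 0.07, adjusted p = 1.44e-05), and 68.1 CPM in wild-type ipsilateral and 49.8 CPM in wild-type contralateral libraries (0.45 ± 0.07, adjusted p = 0.000794). Cers2, the synthase of very-long-chain ceramides, rose by 0.70 ± 0.09 in DKK1 and 0.66 ± 0.09 in wild-type mice. Elovl1, which lengthens fatty acids, rose by 0.86 ± 0.10 in DKK1 and 0.61 ± 0.10 in wild-type mice. The interaction test did not pass for Galc (0.27 ± 0.10, adjusted p = 0.483) or for any other gene of the list.

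Genes of the node and paranode, where glia and axon meet, went the other way. Of 14, 1 was higher and 11 lower ipsilaterally in DKK1 mice, and 1 higher and 7 lower in wild-type mice (medians −0.43 and −0.26). Sptbn4, the nodal spectrin of axons, fell by 0.47 on the log2 scale in DKK1 mice (adjusted p = 0.000611) and by 0.44 in wild-type mice (adjusted p = 0.00178). The potassium channel gene Kcna2 fell by 0.60 in DKK1 and 0.39 in wild-type mice, and Cntnap1, the axonal paranode protein, by 0.42 in wild-type mice (adjusted p = 0.00475). Gldn, a secreted organiser of nodes, was the gene that rose in both genotypes. Most of the genes that fell are expressed by neurons. The part of neurons in these differences was not tested.

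Of 13 genes listed with the oligodendrocyte transcription factors, 6 were higher and 1 lower in DKK1 mice (median 0.42). In wild-type mice 8 were higher and 0 lower (median 0.50). The list includes Carns1, the gene of an enzyme, which was among the higher genes in both genotypes (0.65 ± 0.18 in DKK1 and 0.56 ± 0.18 in wild-type mice). Sox10, which switches on myelin genes, rose by 0.50 ± 0.07 in DKK1 mice (adjusted p = 0.000160) and by 0.50 ± 0.07 in wild-type mice (adjusted p = 0.000345). Myrf, the factor that maintains them, rose by 0.45 ± 0.10 in DKK1 and 0.57 ± 0.10 in wild-type mice. The Wnt effector Tcf7l2, which is also a thalamic marker, averaged 28.5 CPM in DKK1 ipsilateral, 37.6 CPM in wild-type ipsilateral, 22.1 CPM in DKK1 contralateral and 15.9 CPM in wild-type contralateral libraries. It rose in wild-type mice and did not pass in DKK1 mice, and the difference between the genotypes' changes did not pass (−0.89 ± 0.43, adjusted p = 0.550). The gene that fell in DKK1 mice was the histone deacetylase Hdac11.

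Earlier stages were mixed. Of 14 genes of newly formed oligodendrocytes, 9 were higher and 0 lower in each genotype (medians 0.47 in DKK1 and 0.38 in wild-type mice), among them Tns3 (0.996 ± 0.07 in DKK1 and 0.79 ± 0.07 in wild-type mice) and Itpr2 (0.94 ± 0.07 in DKK1 and 0.73 ± 0.07 in wild-type mice). Of 16 genes of precursors, 5 were higher and 2 lower in DKK1 mice and 6 higher and 1 lower in wild-type mice (medians 0.00 and 0.15), and the DKK1 share of higher genes is near the 27.5% of all tested genes. The growth factor receptor gene Pdgfra rose by 0.94 ± 0.12 in DKK1 and 0.67 ± 0.12 in wild-type mice, and Cacng4 fell by 0.52 in DKK1 and 0.44 in wild-type mice. Of 15 genes named for disease-associated oligodendrocytes, 10 were higher and 0 lower in each genotype (medians 1.48 in DKK1 and 1.17 in wild-type mice), with C4b at 2.56 ± 0.15 in DKK1 and 2.31 ± 0.15 in wild-type mice; most of these genes are also expressed by other glia and by immune cells. Of 9 tested genes of Schwann cell myelin, 3 were higher and 1 lower in DKK1 mice and 1 higher and 1 lower in wild-type mice (medians 0.50 and 0.23). In all 8 lists no gene passed between DKK1 and wild type in either hemisphere or in the interaction. At an unadjusted p under 0.05 the lists held 0 to 3 genes each in the ipsilateral hemisphere, of which H2-D1 (0.60 ± 0.14, adjusted p = 0.0501), Plekhh1 (−0.23 ± 0.06, adjusted p = 0.055) and Sox10 (−0.26 ± 0.07, adjusted p = 0.0779) were nearest to the threshold.

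**Figure D5:**
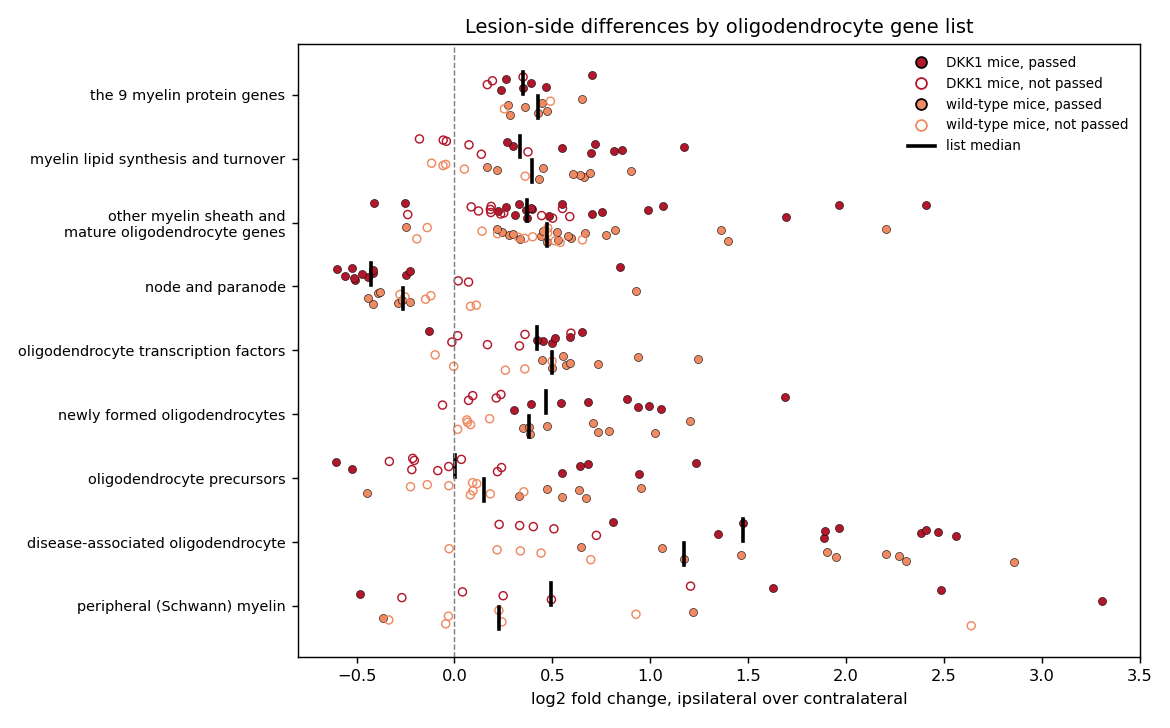
Log2 fold change of ipsilateral over contralateral libraries for each gene of the 9 and of the 8 lists (horizontal axis), with DKK1 mice (red) above wild-type mice (orange) in each row; filled points passed, open points did not, and bars are medians. The 9 genes lie at 0.17 to 0.70 in DKK1 and 0.26 to 0.65 in wild-type mice, and the node and paranode list has its medians at −0.43 and −0.26.

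Finally, the genes most like the 9 were found by Pearson correlation with their mean profile (mean of z-scored log2 CPM) among 14646 named genes. Over the 12 libraries, which includes the difference between hemispheres, Cdc42ep2 (r = 0.974), Tspan15 (0.971), Tmcc3 (0.968), Smad5 (0.966), Plaat3 (0.965), Cd24a (0.962), Bcas1 (0.961) and Spg20 (0.960) came first. Bcas1 marks newly formed oligodendrocytes. All 8 passed as higher ipsilaterally in both genotypes, by 0.30 (Bcas1) to 1.49 (Cd24a) in DKK1 mice. On deviations from the group means, Mlst8 (0.905), Plekhb1 (0.891), Zfp626 (0.889), Ddx39b (0.887), Zfp442 (0.884), Sstr5 (0.880), Gab1 (0.878) and Cdc42ep2 (0.872) came first. Cdc42ep2 alone is in both sets, and Plekhb1 is among the listed genes of mature oligodendrocytes. Likeness was measured over libraries that share depth and cell content, and no p is given.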

How the data were processed

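RNA from 12 mouse brain libraries in 4 groups was sequenced from mRNA with a directional kit (NEBNext Ultra II), per the labels' protocols. Raw counts and TPM values were deposited by the authors as 2 tables, whose headers follow HOMER. STAR 2.7.0f, HOMER 4.11, DESeq2 and mm10 are named in the submitters' processing notes, while their roles, the annotation release and the use of strand go unstated: not given in the sources used here. Where strand was not used, reads of overlapping genes cannot be told apart. The tables list 1 transcript a gene, the same in both for 78.6% of genes, and the deposited TPM values sum to 464026 to 480699 in a library.

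Deposited counts (21209920 to 26911840 a library) were filtered with edgeR's filterByExpr (minimum count 10), which left 17612 of 25124 genes, and scaled by TMM (factors 0.963 to 1.04). All 12 libraries entered 1 model of 4 group means, tested two-sided with edgeR 4.0.16 (robust quasi-likelihood, R 4.3.3), and p-values were adjusted by Benjamini-Hochberg over all genes tested. SEs and 95% intervals come from this model, and CPM in log2 use a prior count of 2. The fit was tested on simulated data. The 9 members and the lists were chosen with earlier results of these data known, and the list of fibroblasts and meninges after the files were seen. All 9 genes are named throughout. From each list up to 4 genes with the smallest p in a comparison could be named, with the few that ran against a list (Omg and Mapt) added after their values were seen. Up to 8 genes a measure were named for likeness, from those of at least 1 CPM, and up to 3 for windows of 5 Mb where the share called was raised.

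Same-numbered libraries of the 2 hemispheres deviated together within a genotype, and the numbers were treated as pairs there. Correlations of deviations were 0.276, 0.125 and 0.105 in DKK1 and 0.487, 0.310 and 0.297 in wild-type mice, all over 0.1. Between different numbers, ipsilateral 3 with contralateral 2 was also over 0.1, at 0.172 in DKK1 and 0.152 in wild-type mice. All other such values were below 0.1. In DKK1 mice 0.172 exceeded the values of numbers 2 and 3, so the correlations do not single out those pairs. Between genotypes not all same-numbered values were over 0.1, and the numbers were not treated as pairs. Alternatives were other scalings, no filter, DESeq2 1.42.0, limma-voom (limma 3.58.1), log2 of TPM plus 1 or 0.1, only the groups compared, replicate blocks, each library left out and, chosen after seeing the data, all libraries numbered 1 left out. Promoters are from RefSeq (GRCm38.p6) and matched by symbol for 8 of 9 genes.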

Additional observations from a re-analysis of the deposited data

How the results depend on the processing

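All hemisphere fold changes of the 9 genes kept their direction under the 24 alternatives, though with 1 library left out Ugt8a came down to 0.0016 in DKK1 and 0.15 in wild-type mice. Calls held under all of them for Cldn11 in both genotypes, for Cnp in DKK1 mice and for Ermn in wild-type mice. Of the differences that did not pass in the main model, Mal in DKK1 mice passed under 8 alternatives and Mobp in wild-type mice under 5. Ugt8a passed under 2 in DKK1 and 3 in wild-type mice, and Mobp in DKK1 mice under 0. Leaving out 1 library at a time gave 2 to 7 genes called in DKK1 and 4 to 7 in wild-type mice; fewer libraries were then tested. The replicate block on the pairs of a genotype gave 8 genes in DKK1 and 9 in wild-type mice, with 9903 of all genes called in DKK1 and 7982 in wild-type mice, and no member passed in the interaction.

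Genotype differences near 0 changed sign. In the ipsilateral hemisphere Mbp was −0.010 and Mobp −0.017 with upper-quartile scaling, Mbp −0.0056 and Mobp −0.013 with no filter, and Mbp −0.024, Mobp −0.028 and Cldn11 −0.0027 with TPM plus 1 and, to these digits, plus 0.1. With only the groups compared, Mbp was −0.0035 and Mobp −0.010. In the interaction, Cnp was −0.0063 with upper-quartile scaling, and Mag was 0.0051 with limma-voom, 0.0047 with the replicate block within genotypes, 0.0041 with the replicate block on numbers across all groups, 0.0052 with the block as a random effect and 0.065 without the libraries numbered 1.

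With 1 library left out, ipsilateral differences between genotypes ranged from −0.0032 to 0.099 for Cldn11, −0.0050 to 0.16 for Cnp, −0.074 to 0.20 for Mag, −0.0043 to 0.033 for Mbp, −0.042 to 0.075 for Mobp, −0.17 to 0.079 for Mog and −0.57 to 0.12 for Ugt8a. Contralateral ones ranged from −0.074 to 0.047 for Cldn11, −0.028 to 0.13 for Cnp, −0.079 to 0.0097 for Ermn, −0.083 to 0.16 for Mag, −0.016 to 0.20 for Mobp, −0.053 to 0.10 for Mog and −0.40 to 0.26 for Ugt8a. Interactions ranged from −0.030 to 0.11 for Cldn11, −0.080 to 0.12 for Cnp, −0.13 to 0.16 for Mag, −0.18 to 0.024 for Mal, −0.14 to 0.0040 for Mbp, −0.21 to 0.028 for Mobp, −0.20 to 0.049 for Mog and −0.49 to 0.20 for Ugt8a.

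Of the 9 genes, 0 to 1 passed between genotypes ipsilaterally with 1 library left out (Ermn, without DKK1 ipsilateral 1) and 2 without the libraries numbered 1. Over all genes, the ipsilateral comparison called 417, against 661 with limma-voom, 97 with only the groups compared, 1145 with DESeq2, 650 with the random-effect block, 5096 without the libraries numbered 1 and 119 to 2551 with 1 library left out (2551 without wild-type ipsilateral 1). The contralateral one called 155, against 267 with DESeq2 and 94 to 197 with 1 left out. The interaction called 1, against 0 with limma-voom, 9 and 4 with TPM plus 1 and plus 0.1, 65 with DESeq2, 288 with the replicate block, 2 with each of the other replicate blocks, 1478 without the libraries numbered 1 and 0 to 393 with 1 left out (393 without wild-type ipsilateral 1). The cause was not tested. Between genotypes the correlations of same-numbered libraries ran from −0.0629 to 0.257, with 4 of 6 not over 0.1, so the numbers were not taken as pairs there. What the numbers share across genotypes is not known, and the replicate block on numbers called 0 members between genotypes in each hemisphere.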
